A study of Mus musculus with 4 samples.

Results

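Distal chromosome 17 holds 94 measured genes that were chosen by position, and most of them were transcribed less in mouse embryonic stem (ES) cells labelled Supt3 KO than in those labelled Supt3 WT. The members are the genes of any biotype on chromosome 17 of mm10 that start at 71869442 or later and had a raw count of 10 or more in at least 2 of the 4 libraries. They are 94 of 197 genes annotated in that interval and 94 of 54146 mouse genes in the deposited table. The start of the interval had been set from the same comparison of KO with WT, so the shift itself describes how the genes were chosen and is given with no test. Nascent RNA was measured by TT-seq, in which newly made RNA carries a thiouridine label and is purified before sequencing, in 2 libraries of each genotype. All 4 libraries came from ES cells kept with LIF and serum, with labelled S. pombe RNA added as a spike-in. The KO cells carry a Supt3 mutation whose allele the labels do not describe, and the labels name no strain, clone or culture. Whether the libraries of a genotype were separate cultures is not known, and errors measure only the spread between these libraries.

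The members are neighbours by place and not by function. Among them are genes of DNA mismatch repair, RNA splicing and export, Ras signalling, chromatin complexes and epithelial adhesion, and also a core of housekeeping genes of mitochondria, membrane traffic and protein turnover. In ES cells, Msh6 takes part in repair of replication errors, Epcam is an adhesion protein of the pluripotent surface, and Dpy30 and Mta3 are subunits of chromatin complexes. Because TT-seq reads fall over introns as well as exons, a long gene collects reads along its whole body, and its signal follows transcription under way rather than stored mRNA. Whether introns were counted here is not known from the labels.

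The stretches in front of 6 members are shown because their genes contrast in the results. Crim1 and Fez2 are convergent neighbours of unlike values, Galnt14 was the member that passed the threshold for higher transcription, Ypel5 and Alk open the interval with unlike values, and Pigf is a gene close to the median of the group that shares its short upstream stretch with Cript. The stretches are 250 bases upstream of a RefSeq transcription start in GRCm38.p6 (the assembly of mm10), cut to 148 bases for Pigf where Cript begins. Capitals mark matches, on either strand, to the GC box GGGCGG, the CCAAT box CCAAT, the TATA box TATAAA and an ETS site CCGGAAG, and no matches overlap each other. On the other strand the GC box reads CCGCCC and the CCAAT box ATTGG.
Crim1 (chr17:78199998-78200247, plus strand): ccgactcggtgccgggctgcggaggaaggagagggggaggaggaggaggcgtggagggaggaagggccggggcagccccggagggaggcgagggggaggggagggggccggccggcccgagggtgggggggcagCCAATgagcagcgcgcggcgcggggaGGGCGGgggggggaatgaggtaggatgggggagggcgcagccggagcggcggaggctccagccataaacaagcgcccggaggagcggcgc
Fez2 (chr17:78418153-78418402, minus strand): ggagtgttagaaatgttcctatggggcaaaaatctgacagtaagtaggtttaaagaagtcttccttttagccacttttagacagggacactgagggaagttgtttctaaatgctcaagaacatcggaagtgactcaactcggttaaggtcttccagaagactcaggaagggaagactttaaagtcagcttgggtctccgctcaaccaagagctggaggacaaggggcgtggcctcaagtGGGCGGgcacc
Galnt14 (chr17:73710452-73710701, minus strand): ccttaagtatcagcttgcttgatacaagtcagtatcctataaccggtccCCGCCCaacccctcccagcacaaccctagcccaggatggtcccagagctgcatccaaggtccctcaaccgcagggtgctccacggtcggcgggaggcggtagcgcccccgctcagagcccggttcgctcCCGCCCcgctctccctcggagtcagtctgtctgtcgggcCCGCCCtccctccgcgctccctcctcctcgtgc
Ypel5 (chr17:72836378-72836627, plus strand): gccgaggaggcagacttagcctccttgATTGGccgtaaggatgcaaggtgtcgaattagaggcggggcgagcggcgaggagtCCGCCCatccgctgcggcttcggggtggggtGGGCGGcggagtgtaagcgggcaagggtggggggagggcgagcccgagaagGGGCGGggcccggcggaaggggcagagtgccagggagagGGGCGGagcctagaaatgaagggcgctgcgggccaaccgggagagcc
Alk (chr17:72604308-72604557, minus strand): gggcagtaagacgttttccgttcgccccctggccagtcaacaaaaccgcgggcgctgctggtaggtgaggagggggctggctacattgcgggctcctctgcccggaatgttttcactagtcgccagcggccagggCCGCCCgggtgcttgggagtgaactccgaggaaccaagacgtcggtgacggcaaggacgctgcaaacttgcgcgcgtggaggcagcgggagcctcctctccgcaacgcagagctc
Pigf (chr17:87025402-87025549, minus strand): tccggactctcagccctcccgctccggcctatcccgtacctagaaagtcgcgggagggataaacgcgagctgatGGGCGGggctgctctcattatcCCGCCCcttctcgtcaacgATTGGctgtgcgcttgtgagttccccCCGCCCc
Ypel5 has 4 GC boxes, Galnt14 and Pigf 3 each, and Crim1, Fez2 and Alk 1 each. Crim1, Ypel5 and Pigf have 1 CCAAT box each, and none of the 6 stretches holds the TATA or ETS letters. The RefSeq start used for Alk lies 598 bases from the 5′ end of the deposited gene model. A start in this table was found for 72 of the 94 members. Of those 72 upstream windows 62.5% hold a GC box, against 32.7% of all 32851 windows, and 8.33% hold a TATA box, against 12.4%. A CCAAT box occurs in 30.6% of the members' windows and in 33.8% of all windows, and the ETS letters in 12.5% and 6.91%. The median GC content was 60% in the members' windows and 52.4% in all windows. All windows include those of genes that these cells do not transcribe, so the figures describe the sequences and compare nothing about regulation.

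The libraries held 13512654 and 19405100 mouse counts in WT, against 13092151 and 18386501 in KO. Supt3 lies on the same chromosome but outside the interval. Its level was 148 and 159 CPM in WT and 123 and 139.8 CPM in KO, given as CPM, edgeR's count per library size after TMM scaling (trimmed mean of M-values). Its log2 fold change was -0.22 ± 0.10 (edgeR, adjusted p = 0.232), and -0.31 without KO replicate 2 (adjusted p = 0.0328). The mutated stretch is not known, so the summed count over the gene does not check the labels. Of 10 ES cell markers 9 were tested, with summed levels of 2289 and 2307 CPM in WT and 1688 and 1895 CPM in KO. Their median log2 fold change was -0.06, from -0.79 for Esrrb, with 543 and 612 CPM in WT and 242 and 427 CPM in KO, to 0.19 for Dppa4, with 40.6 and 44.3 CPM in WT and 47.6 and 49.6 CPM in KO. Of the 9, 1 passed an adjusted p of 0.05 in edgeR as lower and 0 as higher, where 4.02% and 4.05% of all tested genes did. The marker that passed was Nanog (-0.53 ± 0.13), with 118 and 117 CPM in WT and 69.7 and 92.0 CPM in KO. Esrrb and Zfp42 (-0.62 ± 0.17) did not pass, and Pou5f1, Dppa4 and Tdgf1 lay above 0. Sox2, which lies inside Sox2ot on the same strand, was listed at 0 in all 4 libraries. Of 10 fibroblast markers, which feeder cells would carry, 5 were tested, with sums between 31.7 and 41.5 CPM, of which Fbn1 gave 27.1 to 37.1 CPM. Col1a1 and Col3a1 were at 1.18 CPM or less in each library. The part of these markers in the results below was not tested.

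The members together gave 0.812% and 0.851% of mouse counts in the WT libraries and 0.418% and 0.458% in the KO libraries. The rest of chromosome 17 gave between 3.86% and 4.04% in all 4 libraries. In bulk libraries such as these, fewer cells that transcribe a gene and less RNA per cell cannot be told apart. Only RNA was measured, so the number of copies of each gene per cell is not known, and its part was not tested. The median log2 fold change of KO over WT across the 94 members was -0.88 (quartiles -1.05 and -0.64), a ratio of 0.542, and 87 members lay below 0. All 94 passed the low-count filter used for the fit of 16789 genes, whose median was 0.01 (quartiles -0.20 and 0.19). Among the 668 tested genes on the rest of chromosome 17 the median was also 0.01. In edgeR's quasi-likelihood fit with Benjamini-Hochberg adjustment over all tested genes, 63 members passed an adjusted p of 0.05 as lower, where 4.02% of all tested genes did. As higher, 1 member passed, where the share of all genes was 4.05%. In 82 members both KO libraries lay under both WT libraries, an order found in 26% of all tested genes, and in 6 members both KO libraries lay above, where 26.7% of all genes had that order. DESeq2 called 58 members lower and 0 higher (68 and 1 at an unadjusted p under 0.05), where the shares of all genes were 3.57% and 3.76%, and limma voom called 64 and 1, where they were 4.08% and 3.98%. Without WT replicate 1, without WT replicate 2, without KO replicate 1 and without KO replicate 2, edgeR called 57, 53, 67 and 65 members lower, where it called 4.07%, 2.41%, 5.74% and 8.76% of all genes lower. It then called 0, 0, 1 and 1 members higher, where it called 4.01%, 2.01%, 5.65% and 9.46% of all genes higher. Since this comparison had set the interval, nothing is read from these counts, here or in the lists below, and "called" means only that a gene passed the adjusted p of 0.05.

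**Figure D1:**
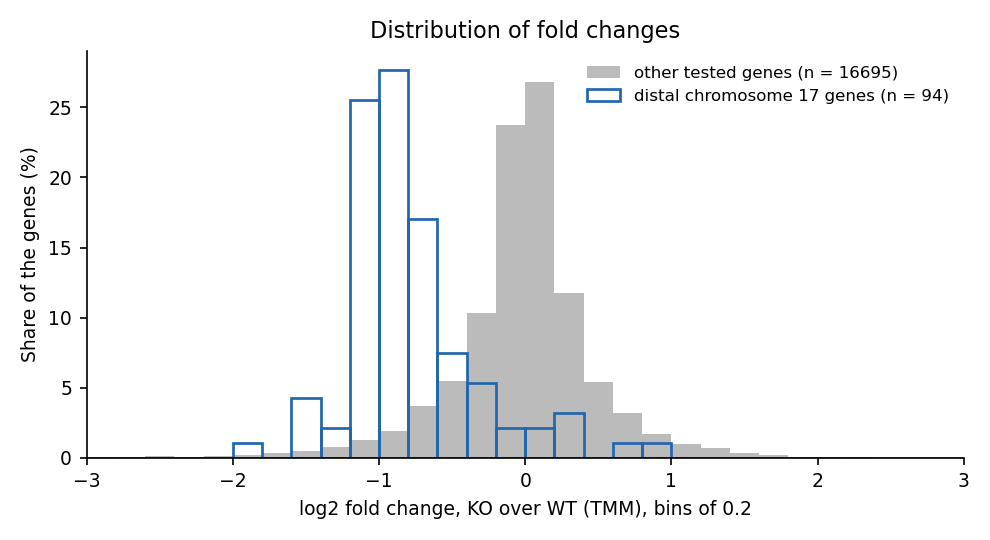
Share of genes (%) in bins of 0.2 of the KO over WT log2 fold change, for the 94 distal chromosome 17 genes (blue outline) and 16695 other tested genes (grey bars); values beyond the axis range are not drawn. The members centre at -0.88 and the other genes at 0.01, and a few members lie at or above 0.

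The interval, whose start had been set from this comparison, begins between a pair of neighbouring genes. Clip4, which encodes a CAP-Gly domain protein of microtubules, ends 5.17 kb before the start of the interval. Its level was 42.9 and 41.4 CPM in WT and 45.3 and 44.7 CPM in KO, and the KO libraries were slightly above the WT libraries. Next to it is Alk, a receptor tyrosine kinase gene of 734 kb, with 22.5 and 23.6 CPM in WT and 7.42 and 8.19 CPM in KO. Alk was among the lowest members, at a log2 fold change of -1.56 ± 0.14 (SE). The log2 fold change of Clip4 was 0.10 ± 0.10, and it was -0.13 with spike-in scaling. The 2 genes before Clip4 were Togaram2, with 0.223 to 1.17 CPM (-0.78 ± 0.58), and Wdr43, a ribosome biogenesis gene with 520.0 and 578 CPM in WT and 542 and 580 CPM in KO, whose log2 fold change of 0.03 ± 0.11 was -0.21 with spike-in scaling. Over the last 10 tested genes before the interval the median was 0.02, and edgeR called 0 lower and 1 higher, Myl12a (0.41 ± 0.10), named after its value was seen. Over the first 10 inside it, the median was -0.79, and 6 were called lower and 1 higher, Galnt14. Among those 10, Ypel5 (-0.08), Galnt14 (0.77) and Ehd3 (0.20) lay near or above 0, so these values do not fix where the shift begins.

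Within the interval the shift ran to the end of the chromosome. In steps of 5 Mb from its start the medians were -0.80 (17 genes), -0.83 (34 genes), -0.96 (18 genes), -0.96 (20 genes) and -1.07 (5 genes). The quartiles of neighbouring steps overlapped. On the proximal side, the 14 windows of 5 Mb that cover the chromosome up to 70 Mb had medians between -0.17 and 0.09. The last step holds Mettl4, an RNA and DNA methyltransferase gene, with 50.9 and 51.7 CPM in WT and 23.1 and 25.3 CPM in KO (log2 fold change -1.08 ± 0.10). A pseudogene of it, Mettl4-ps1, lies outside the interval, where its log2 fold change was 0.05 ± 0.32 at 1.46 to 1.71 CPM. Reads of so similar copies may be assigned to either.

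**Figure D2:**
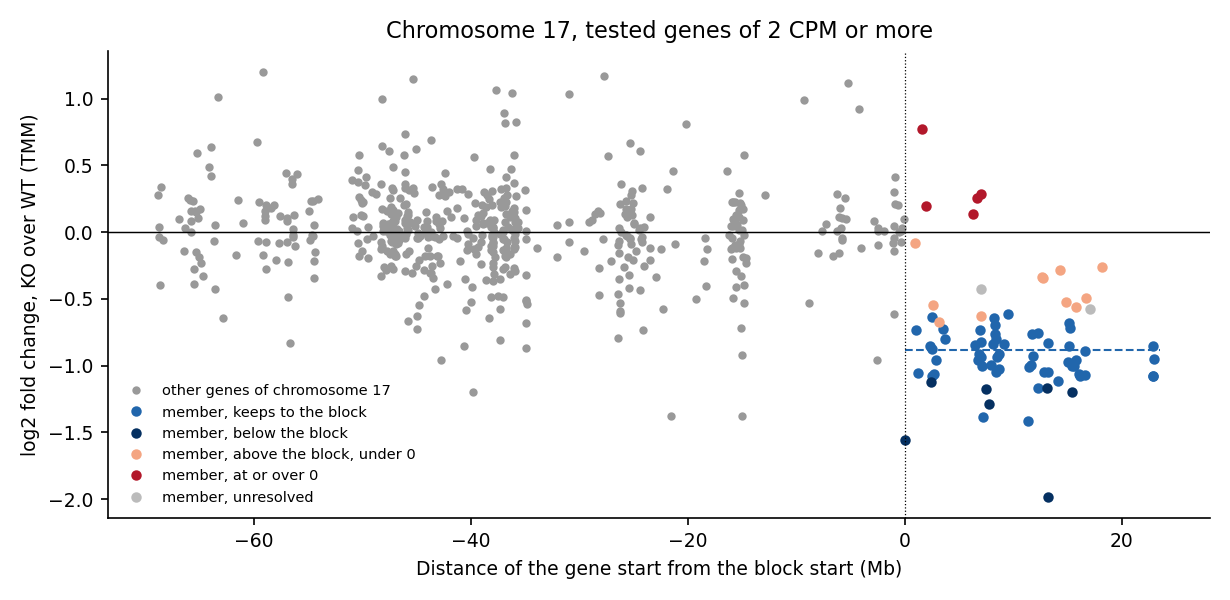
Log2 fold change of KO over WT (vertical axis) against the distance of each gene start from the start of the interval (Mb), for the tested chromosome 17 genes of 2 CPM or more; grey points are other genes, coloured points are members by how their value plus and minus 2 SE lay against the members' median (dashed line, -0.88). Values scatter around 0 to the left of the dotted line and mostly around the dashed line to its right, with Galnt14 the highest member drawn.

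Between single libraries the members also lay lower in KO. Medians of log2 (CPM + 0.5) differences were -0.87, -0.88, -0.77 and -0.80 for the 4 KO and WT pairs, which share libraries, while the medians of all other genes lay between -0.01 and 0.02. Inside WT, where the rule had used no difference, the members' median was 0.02 for replicate 2 over replicate 1, and 41 of 94 members lay below 0. Inside KO it was 0.13, with quartiles of -0.07 and 0.27, and 29 of 94 lay below 0, where the other genes had a median of -0.01. The members were thus somewhat less lowered in KO replicate 2 than in KO replicate 1. Gene length moved with this difference. For genes of 20 CPM or more that span 100 kb or more, KO replicate 2 exceeded KO replicate 1 by a median of 0.25 in 14 members and 0.16 in 1520 other genes. Below 50 kb the medians were 0.10 in 18 members and 0.00 in 4442 other genes. In WT the corresponding differences for the long genes were 0.08 and 0.06. The part of length or depth in the members' values was not tested.

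**Figure D3:**
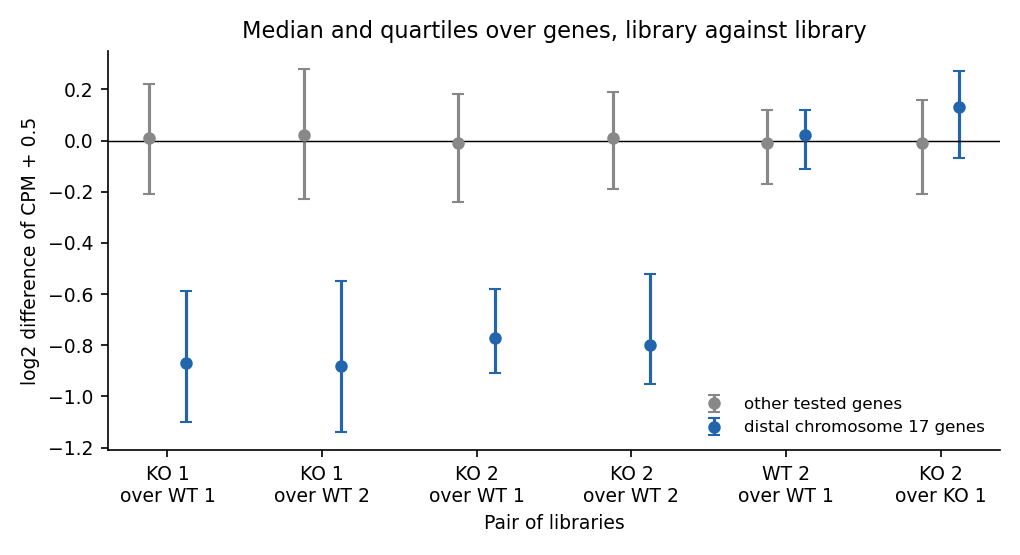
Median (points) and quartiles (bars) over genes of the log2 difference of CPM + 0.5 between 2 libraries, for the 94 members (blue) and all other tested genes (grey). The 4 KO over WT pairs of the members lie between -0.88 and -0.77, and the pairs inside WT and inside KO at 0.02 and 0.13.

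Counted against the S. pombe spike-in, the members were lower as well, though with a wide spread. Their summed counts per S. pombe count were 0.0264 and 0.0477 in WT and 0.0113 and 0.0222 in KO, so each KO library was under each WT library. KO replicate 2 lay just under WT replicate 1. With spike-in scaling the members' median was -1.11 and that of all tested genes -0.23, a difference of -0.88. edgeR then called 0 members lower and 0 higher (13 lower and 0 higher at an unadjusted p under 0.05), where 0.0953% and 0.00596% of all genes were called. The biological coefficient of variation was 0.363 on this scale and 0.0952 on the TMM scale. In 78 members both KO libraries still lay under both WT libraries, against 13.2% of all tested genes. In the authors' deposited table, whose size factors follow the spike-in totals and whose fold changes are shrunken, the members' median was -0.77, 89 of 94 were negative, and 0 had an adjusted p under 0.05 (48 an unadjusted one), where 0.0237% of all genes were lower and 0.00339% higher at that threshold.

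How closely members kept to the median was described by the log2 fold change plus and minus 2 SE. For 63 members that interval held -0.88 and not 0, with values from -1.47 to -0.61. For 7 it lay wholly below the median, for 11 wholly above it though the value was still under 0, and for 7 it lay above with a value at or over 0. Of these last 7, Vit reached a count of 10 only in the KO libraries, with raw counts of 9 and 7 in WT and 12 and 16 in KO, so it entered through the group where it was higher. The other 6 held both -0.88 and 0. Their median level was 1.42 CPM, and at this depth they could not be placed. The spread among members shrank with level: the SD of the log2 fold change was 0.64 in 25 members under 5 CPM and 0.28 in 21 members of 100 CPM or more. The 7455 other genes of 20 CPM or more had an SD of 0.29, and the 47 members of that level also had 0.29. Across the 94 members Spearman's rho between log2 fold change and mean CPM was -0.194, and with gene span -0.101, over genes that share all 4 libraries. Members on the plus strand (51) had a median of -0.89 and those on the minus strand (43) of -0.86.

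Of 4 genes listed under mismatch repair and genome upkeep, 4 were called lower, with a median of -1.09. The list mixes mismatch repair genes with Thada and Srbd1, so its count stands for no shared role. Msh6, whose product recognises mismatched bases, had 287 and 267 CPM in WT against 143 and 122 CPM in KO. Its KO libraries lay far under its WT libraries, with a log2 fold change of -1.06 ± 0.11. Thada, a long gene first found at thyroid tumour breakpoints, had 580 and 659 CPM in WT and 236 and 315 CPM in KO. Srbd1, an RNA-binding domain gene, had 596 and 661 CPM in WT and 254 and 326 CPM in KO, and KO replicate 1 was the lowest library for Thada and Srbd1. The other mismatch repair genes, which lie elsewhere in the genome, had values close to 0. Of 8 tested, among them Msh3, Exo1 and Pcna, edgeR called 0, and their log2 fold changes ran from -0.26 to 0.09. Msh3, which encodes a mismatch sensor for small loops, had 176 and 203 CPM in WT and 159.6 and 185 CPM in KO, so the genotypes overlapped (-0.13 ± 0.11).

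Of 10 RNA-processing and translation genes 8 were called lower, and the list's median was -0.78. Srsf7, a splicing factor and export adaptor, had 280 and 312 CPM in WT and 171 and 178 CPM in KO, a log2 fold change of -0.76 ± 0.10. Lrpprc, which stabilises mitochondrial mRNAs, had 219.6 and 233 CPM in WT and 101 and 119 CPM in KO (-1.04 ± 0.11). Hnrnpll, a regulator of alternative splicing, had 106 and 117 CPM in WT and 59.0 and 65.8 CPM in KO. The interval of Eif2ak2, which encodes the kinase that senses double-stranded RNA, lay above the members' median at -0.63 ± 0.13, with 22.1 and 23.1 CPM in WT and 14.5 and 14.8 CPM in KO. It was no longer called without WT replicate 2, at -0.59. Zfp36l2, whose product destabilises AU-rich mRNAs, had 15.2 and 17.2 CPM in WT and 8.16 and 10.9 CPM in KO, and was not called without the same library, at -0.66. The 2 members of the list without a call were Gemin6, a subunit of the SMN complex (-0.70 ± 0.19), and Gpatch11 (-0.73 ± 0.19), both under 10 CPM in every library and lower in both KO libraries. Gemin6 was called without KO replicate 1 (-0.86), and Gpatch11 without KO replicate 2 (-0.94). Among 9 genes of other SR proteins, the family of Srsf7, edgeR called 0, and values ran from -0.10 to 0.07.

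Of 12 kinase, phosphatase and adaptor genes 9 were called lower, with a median of -0.98. Sos1, the exchange factor that loads Ras with GTP, had 161 and 175 CPM in WT and 81.5 and 94.6 CPM in KO. Calm2, a calmodulin gene, had 151 and 174 CPM in WT and 74.6 and 87.4 CPM in KO, a ratio of 0.499. Map4k3, a kinase of amino acid signalling and a member near the median, had 413 and 456 CPM in WT and 197 and 265 CPM in KO. For each of these genes every KO library lay under every WT library. Ppm1b, a serine and threonine phosphatase gene, was lower than the median by its interval, with 332 and 350 CPM in WT and 130 and 174 CPM in KO (-1.17 ± 0.14). Prkd3, a protein kinase D gene, had -1.01 ± 0.10, and Socs5, a suppressor of cytokine signalling, -0.72 ± 0.14. Prkce, a protein kinase C gene, departed upward: it had 62.2 and 64.9 CPM in WT and 49.4 and 55.0 CPM in KO, a log2 fold change of -0.28 ± 0.10, and was called only without KO replicate 2 (-0.36) among the fits without a library. Sos2, the paralogue of Sos1 elsewhere, was higher in both KO libraries, with 34.15 and 35.45 CPM in WT and 44.7 and 48.5 CPM in KO (0.42 ± 0.10, edgeR adjusted p = 0.0373). That call was lost without either WT library (adjusted p = 0.161 and 0.144), in DESeq2 (0.0945) and with upper quartile factors (0.0506). Calm3, a calmodulin gene elsewhere, had -0.06 ± 0.16.

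Of 9 listed transcription and chromatin genes 7 were members and 4 were called lower, with a median of -0.93. Dpy30, a core subunit of the COMPASS histone methyltransferases, had 101 and 117 CPM in WT and 47.0 and 53.5 CPM in KO, a log2 fold change of -1.12 ± 0.11 whose interval lay below the members' median. Mta3, a subunit of the NuRD deacetylase complex, had 352 and 414.5 CPM in WT and 182 and 222 CPM in KO. Foxn2, a forkhead factor gene, had 154 and 178 CPM in WT and 67.5 and 90.5 CPM in KO. These 3 genes did not overlap between genotypes. Epas1, the hypoxia-inducible factor HIF-2 alpha, had 129 and 164 CPM in WT and 93.2 and 111 CPM in KO. Its interval lay above the median (-0.52 ± 0.13), and it was not called without WT replicate 2, at -0.34. The homeobox genes Six2 and Six3 were in the interval but had at most 5 counts in any library. Of 8 other COMPASS genes and 10 other NuRD genes edgeR called 0, with ranges of -0.33 to 0.20 and -0.19 to 0.23. Without KO replicate 2 it called the COMPASS genes Rbbp5 (-0.47), Wdr5 (-0.34) and Setd1b (-0.39) lower and the NuRD gene Mta2 (0.37) higher. That fit called a larger share of all genes in both directions than the fit of all 4 libraries, as given above. Among 4 other HIF genes edgeR called 0 with all 4 libraries, with a range of -0.11 to 0.31.

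**Figure D4:**
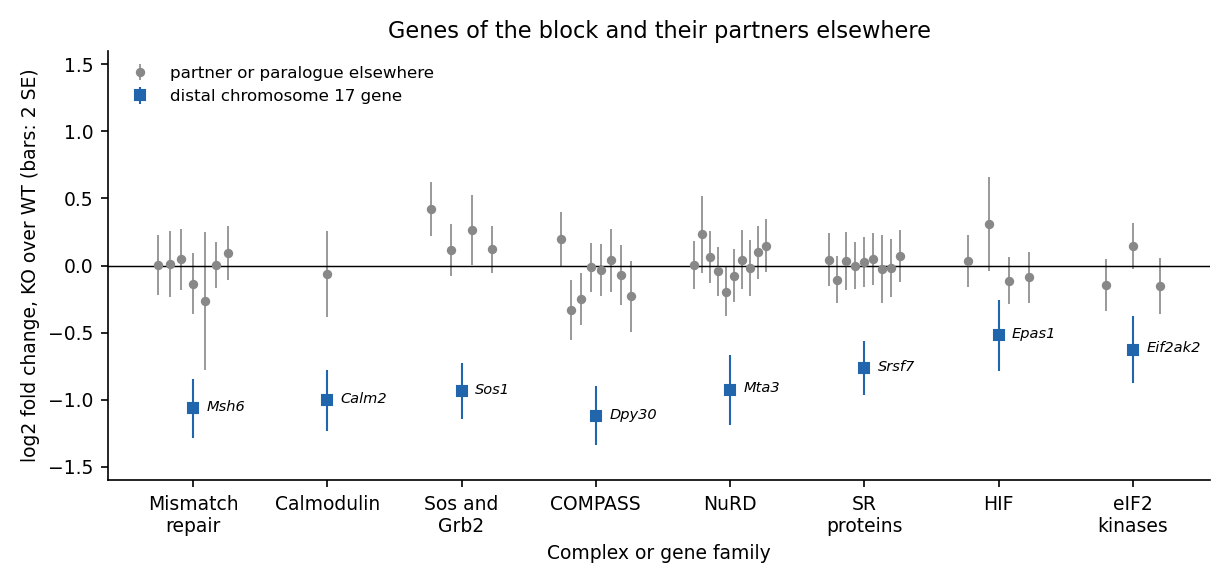
Log2 fold change of KO over WT with bars of 2 SE for members (blue squares) and for genes elsewhere whose products are in the same complex or family (grey circles). Each member lies under every partner of its column, from -0.52 for Epas1 to -1.12 for Dpy30, while partners range from -0.33 to 0.42.

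Over all 10 partner lists, 54 genes outside the interval were tested, and their median was 0.02. edgeR called 0 of them lower and 1 higher (3 lower and 2 higher at an unadjusted p under 0.05), DESeq2 called 0, and limma voom called 2 higher and 0 lower. Without KO replicate 2 edgeR called 4 lower and 3 higher (6 and 7 at an unadjusted p under 0.05). It called 0 lower and 1, 0 and 2 higher without WT replicate 1, WT replicate 2 and KO replicate 1. The shares of all genes called in each of these fits stand above beside the members' counts, and nothing is read from the partner counts. With spike-in scaling the partner median was -0.21, beside -0.23 for all genes on that scale. Zfp36, the paralogue of Zfp36l2, had 16.3 and 11.0 CPM in WT and 22.4 and 20.6 CPM in KO and was not called (0.67 ± 0.19, edgeR adjusted p = 0.0659), and the other paralogue, Zfp36l1, had -0.30 ± 0.13. Zfp36 was called without WT replicate 1 (0.96), KO replicate 1 (0.60) and KO replicate 2 (0.73), and Zfp36l1 without KO replicate 2 (-0.48). The 3 other eIF2 alpha kinase genes ran from -0.16 to 0.15.

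Many mitochondrial, trafficking and turnover genes kept to the median, as did 63 of all 94 members, so this is no trait of these lists. Birc6, a giant ubiquitin-conjugating enzyme gene that restrains cell death, had 546 and 572 CPM in WT and 255 and 281 CPM in KO (-1.06 ± 0.11). Fbxo11, a substrate receptor of SCF ubiquitin ligases, had 212 and 221 CPM in WT and 86.4 and 118 CPM in KO, and all 5 tested genes of its list were called lower. Cox7a2l, a factor of respiratory supercomplexes, had 85.8 and 83.9 CPM in WT and 41.5 and 43.8 CPM in KO, with little spread in either genotype, and 2 of 3 mitochondrial genes were called lower. Of 17 tested genes of membrane traffic, cytoskeleton and cilia, 14 were called lower, with a median of -0.89. By their intervals Yipf4, Dync2li1, Ston1 and Ehd3 of that list lay above the members' median, and Rmdn2, Cdc42ep3 and Ttc7 below it. Spast, which encodes a microtubule-severing ATPase, was the gene nearest to the members' median among the named members, with 82.3 and 87.8 CPM in WT and 44.0 and 48.5 CPM in KO. Eml4, a microtubule-associated protein gene, had -1.01 ± 0.12, and Atl2, which shapes the endoplasmic reticulum, -0.99 ± 0.11. Ndufaf7, an assembly factor of respiratory complex I, could not be placed: it had 6.82 and 4.60 CPM in WT and 5.71 and 2.86 CPM in KO, and the log2 difference of -0.43 was 0.02 without KO replicate 2 and, past the threshold, -0.98 without KO replicate 1. Of 7 tested metabolic genes 4 were called lower and 1 higher, with a median of -0.65. Lclat1, an acyltransferase of cardiolipin remodelling, had 127 and 154 CPM in WT and 53.7 and 81.4 CPM in KO.

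Surface, matrix and channel genes were mixed, with 6 of 12 tested called lower and a list median of -0.59. Epcam had 58.7 and 53.2 CPM in WT and 40.7 and 35.1 CPM in KO, a log2 fold change of -0.56 ± 0.11 that lay above the members' median by its interval. Ltbp1, which stores latent TGF-beta in the matrix, had 96.5 and 92.4 CPM in WT and 54.7 and 63.9 CPM in KO (-0.67 ± 0.10). Slc8a1, a sodium and calcium exchanger gene, had -0.61 ± 0.23 and was not called. The sterol transporter genes Abcg5 and Abcg8 had at most 3 counts in any library.

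**Figure D5:**
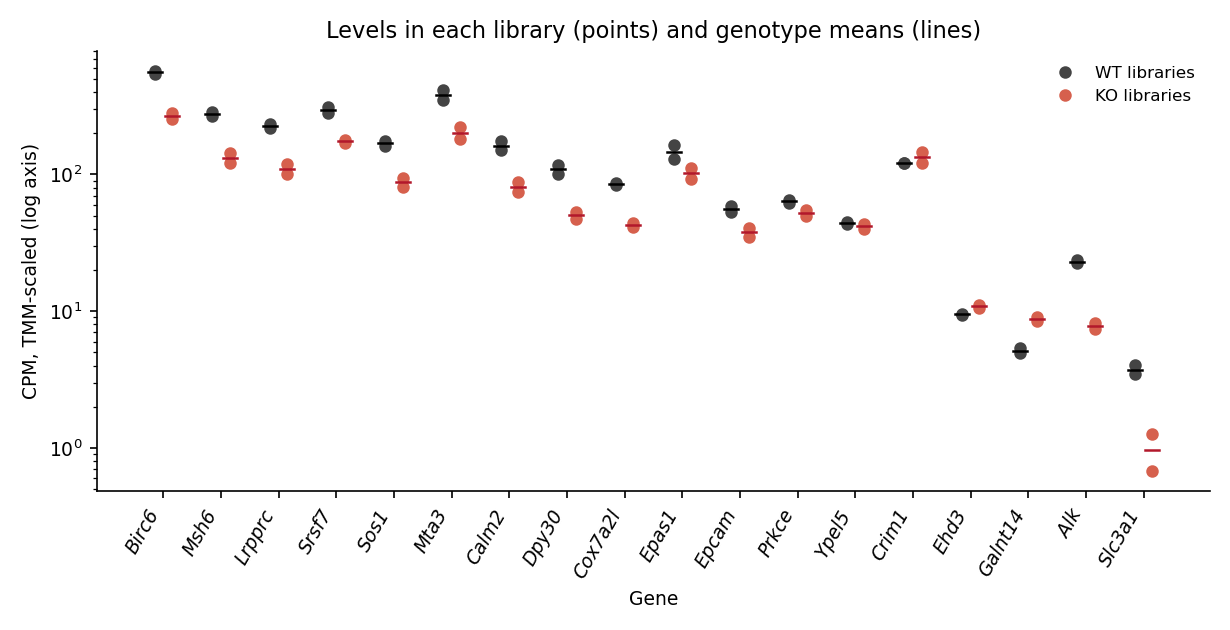
CPM (TMM-scaled, log axis) in each library for 18 members; dark points are WT libraries, red points KO libraries, and lines genotype means. From Birc6 to Prkce, and for Alk and Slc3a1, both red points lie under both dark points, while Ypel5 and Crim1 overlap and Ehd3 and Galnt14 lie higher in KO.

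Among the 7 members at or over 0 were 4 known protein-coding genes of at least 2 CPM. Crim1, which encodes a transmembrane protein that binds BMPs, had 122 and 120.5 CPM in WT and 120.5 and 146 CPM in KO, and the genotypes overlapped. Its log2 fold change was 0.14 ± 0.11, and it was -0.01 without KO replicate 2 and -0.06 with spike-in scaling. Fez2, a transport adaptor gene whose end lies 1.29 kb from that of Crim1, had 21.4 and 25.6 CPM in WT and 12.02 and 14.1 CPM in KO (-0.84 ± 0.15). The convergent pair thus differed by about the size of the members' median. Galnt14, which starts O-linked glycan chains on proteins, had 5.35 and 4.92 CPM in WT and 8.46 and 9.03 CPM in KO, a log2 fold change of 0.77 ± 0.18. It was the member called higher in edgeR, and it was not called without WT replicate 1 (0.82), without WT replicate 2 (0.71) or in DESeq2 (0.77), where its value was of like size. Its neighbour Ehd3, an ATPase of endosome recycling, had 9.45 and 9.46 CPM in WT and 11.1 and 10.6 CPM in KO, a log2 fold change of 0.20 ± 0.16 that was -0.04 with spike-in scaling. Sult6b1, a sulfotransferase gene, had 12.7 and 11.0 CPM in WT and 14.8 and 14.0 CPM in KO (0.29 ± 0.15). It overlaps the lincRNA gene Gm26637 on the other strand, and the sources used here do not give the strand setting of the counting, so its value is uncertain. Eif2ak2 also overlaps Gm26637 on the other strand, and Sos1 and Arhgef33, Msh6 and Fbxo11, Pigf and Rhoq, and Ppm1b and 1110020A21Rik overlap in the same way. So do Cebpz and Cebpzos, Dhx57 and Morn2, and 2700099C18Rik and Gm1976, of which Cebpzos and Morn2 are named after their values were seen. Vit, a matrix protein gene, Kcnk12, a potassium channel gene, and the predicted gene Gm10093, named here after their values were seen, were also above 0, with 0.366 to 2.67 CPM in all libraries and intervals that held 0.

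Ypel5, a member of the conserved yippee family and the second gene of the interval, stayed close to 0 without reaching it. It had 45.2 and 43.1 CPM in WT and 39.6 and 43.7 CPM in KO, which overlapped (-0.08 ± 0.10). It lies between Alk at -1.56 and Lbh, a transcription cofactor gene at -0.73 ± 0.32. A pair of neighbours further on, Plekhh2 (-0.33 ± 0.12) and Dync2li1, a light intermediate chain of cytoplasmic dynein 2, the motor of cilia (-0.34 ± 0.23), were both above the median by their intervals and lie 4.35 kb apart. Yipf4 (-0.55 ± 0.13) and Ston1 (-0.50 ± 0.14), a gene of endocytic sorting, belong with them. Yipf4 was not called without WT replicate 2 (-0.50) or in DESeq2, and Ston1 was called without KO replicate 2 (-0.67). The 49 windows in front of genes that kept to the median held a GC box in 65.3% of cases and had a median GC content of 61.6%. For the 5 windows of genes at or over 0 these values were 60% and 64.8%, too few to compare.

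Among named members of at least 2 CPM, 8 had the lowest values. Slc3a1, the heavy subunit of a cystine transporter, had 4.03 and 3.45 CPM in WT and 1.26 and 0.673 CPM in KO, a log2 fold change of -1.98 ± 0.35. It overlaps Prepl (-0.83 ± 0.14) at their ends on opposite strands, so its value too depends on the strand setting. Alk, Pkdcc (-1.41 ± 0.34), Qpct (-1.38 ± 0.31), Rmdn2 (-1.28 ± 0.16), Ttc7 (-1.20 ± 0.14), Cdc42ep3 (-1.17 ± 0.11) and Thada (-1.17 ± 0.15) followed. Pkdcc, a secreted tyrosine kinase, and Qpct, an enzyme that forms pyroglutamate, were under 5 CPM in all libraries, and without WT replicate 1 neither was called (-1.21 and -1.13). For Slc3a1, Alk, Rmdn2, Ttc7 and Cdc42ep3 the whole interval lay below the members' median. Cdc42ep3, an effector of the GTPase Cdc42, had 50.8 and 56.6 CPM in WT and 22.9 and 24.7 CPM in KO.

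Some members start close to each other on opposite strands. There were 7 such pairs with less than 1 kb between their starts and no overlap, looked for after the data had been seen. By their intervals both genes kept to the median in 6 of them, where 63 of all 94 members did so. Nothing is read from the 6, and whether paired genes move together was not tested. Pigf (-0.86 ± 0.09), an enzyme of GPI anchor synthesis, and Cript (-0.68 ± 0.13) are such a pair. They start 143 bases apart across the stretch printed above. Cript was not called without WT replicate 2, at an equal value of -0.68. Heatr5b and Gpatch11, with 134 bases between them, had -0.92 ± 0.12 and -0.73 ± 0.19, and Prepl and Camkmt, 458 bases apart, -0.83 ± 0.14 and -1.05 ± 0.09. Srsf7 and Ttc39d, 154 bases apart, were further from each other, at -0.76 ± 0.10 and -1.42 ± 0.38, and Ttc39d, at 0.519 to 1.76 CPM and named after its value was seen, is counted as keeping with a wide SE. Gm1976 and Gm26734 had -0.85 ± 0.10 and -1.07 ± 0.39, and Mettl4 and 2700099C18Rik -1.08 ± 0.10 and -1.07 ± 0.10. As 2700099C18Rik and Gm1976 overlap on opposite strands, the values of both depend on the strand setting. In the other counted pair, Cebpz, a ribosome biogenesis gene, was at -0.93 ± 0.09, and Ndufaf7, 64 bases away, could not be placed. Pairs whose starts lie under 1 kb apart but overlap were not counted. They include Dhx57 (-0.80 ± 0.11) with Morn2 (-0.52 ± 0.31), and Morn2 could not be placed. Eif2ak2, above the median, with Gm26637 (-0.89 ± 0.37) is another, as is Ppm1b, below the median, with 1110020A21Rik (-0.76 ± 0.37).

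The other 103 genes of the interval did not reach the count rule. Of them 65 had no count in any library and 20 were annotated as protein-coding. Together they had 84 and 116 raw counts in WT and 47 and 54 in KO. Just inside the rule were Gm15404, Vit and Gm6548, whose second-highest counts were 13, 12 and 10. Just outside it were Xdh, Srd5a2 and 4833418N02Rik, each with a second-highest count of 8. Among traits that the rule had not used, the median gene span was 39.5 kb in members and 24.5 kb in the others, 92.6% and 84.3% were protein-coding, and the WT level per length was a median of 0.860 and 0.760 CPM per kb of gene span.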

How the data were processed

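Nascent RNA of 4 libraries was analysed, 2 labelled Supt3 WT and 2 labelled Supt3 KO, numbered in accession order and not paired by the labels. The authors deposited raw counts per mouse and per S. pombe gene, normalized signal values (counts over a size factor), log2 fold changes shrunken by a beta prior, and p-values. Per the submitters' processing notes, the build was mm10 and the tools were STAR 2.5.3, DESeq2 1.16.1, HTSeq 0.6.1p1, cutadapt 1.10 and bcl2fastq 2.20.0.422. The sources used here do not give the strand setting, the counted feature, the annotation release or any removal of PCR copies.

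Genes were kept with filterByExpr (minimum count 10), which left 16789, and KO was compared with WT in edgeR 4.0.16 (R 4.3.3) with TMM factors and Benjamini-Hochberg adjustment over all of them. Levels are edgeR's CPM, scaled by each library's mouse total and TMM factor. The SE is the size of the log2 fold change over the square root of F. DESeq2 1.42.0, limma voom 3.58.1, other scalings and filters, and fits without each library were alternatives. The fit was tested on simulated counts of 16789 genes. It called 91% of 67 genes lowered by 1 on the log2 scale, 25.4% of 67 lowered by 0.5 and 0.0241% of unchanged genes. The simulation gave every gene the same dispersion and lowered only genes of 2 CPM or more. It thus does not tell how often members of low level would be called. Fits without a library assume that the lone library of a genotype varies like the other pair. The members and gene lists were chosen with earlier results of these data known. Some genes of these groups are not reported here. Named genes were Supt3, members in lists by role, the 8 lowest and all those at 0 or more among known protein-coding members of at least 2 CPM, the 5 nearest to the median, and the 3 tested genes on each side of the start. Promoter sequences are from RefSeq, GRCm38.p6. Figures used Python 3.11.15 and matplotlib 3.10.9.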

Additional observations from a re-analysis of the deposited data

How the results depend on the processing

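The members' median of -0.88 lay between -0.95 and -0.84 in the fits without each library and was -1.11 with spike-in scaling, where that of all genes was -0.23. The number called lower, 63, lay between 53 and 67 without each library and was 0 with spike-in scaling. The number called higher, 1, lay between 0 and 1 without each library, and was 0 with spike-in scaling and in DESeq2 (1 at an unadjusted p under 0.05). The median of the partner genes, 0.019, was -0.21 with spike-in scaling and lay between 0.0037 and 0.045 without each library. The numbers keeping to the median and escaping lay between 61 and 70 and between 6 and 8 without each library, alternatives that were chosen after seeing the data. Signs turned for Clip4 (-0.13), Wdr43 (-0.21), Ehd3 (-0.04) and Crim1 (-0.06) with spike-in scaling, for Wdr43 with upper quartile factors (-0.01) and without WT replicate 1 (-0.05), and without KO replicate 2 for Wdr43 (-0.02), Crim1 (-0.01) and Ndufaf7 (0.02). The other ends of their ranges without a library were 0.11, 0.26 and -0.98. Of 759 values of 69 named genes under alternatives, 664 kept direction and side of the threshold, 73 fell short of it, of which 49 with spike-in scaling, 13 newly passed it and 9 turned. The cause of these changes was not tested. No paired analysis was possible because the labels give no replicate numbers. With 2 libraries per genotype, members under 5 CPM had a median SE of 0.34 and those of 20 to 100 CPM one of 0.10.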
